A study of Mus musculus with 6 samples.

Results

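Ihh, Pthlh, Pth1r and Fgfr3 encode 2 secreted signals and 2 receptors of the growth plate, and the open chromatin around them was followed in differentiating ATDC5 cells. ATDC5 is a mouse prechondrocyte line of teratocarcinoma origin that forms cartilage-like nodules in culture. The assay was ATAC-seq, which tags accessible DNA with adapters carried by the Tn5 transposase. All peaks with a summit in 4 windows of the GRCm39 assembly were taken: chr1:74850000-75050000 for Ihh, chr6:147000000-147300000 for Pthlh, chr9:110500000-110650000 for Pth1r and chr5:33800000-33950000 for Fgfr3. These windows held 1126 of the 1455940 peaks listed over 6 libraries, of which 213 lay in the Ihh window, 185 in the Pthlh window, 334 in the Pth1r window and 394 in the Fgfr3 window. Day0, Day3 and Day10 of differentiation had 2 libraries each, described in the labels as independent biological replicates. Cells of all 3 days were unmodified ATDC5 cells spotted as dense droplets, and the differentiation medium held beta-glycerophosphate and ascorbate-2-phosphate. The Day0 samples are labelled control and the Day3 and Day10 samples differentiation. Whether Day0 cells had met that medium is not given in the sources used here. The libraries come from 1 immortal line grown in a dish, so the zones of a growth plate are not separated.

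Cells of a growth plate divide in columns and then enlarge. Indian hedgehog (Ihh) is secreted by prehypertrophic chondrocytes and raises the production of parathyroid hormone-related protein (Pthlh) near the end of the bone. Parathyroid hormone-related protein acts through its G protein-coupled receptor Pth1r on columnar and prehypertrophic cells and delays hypertrophy, which closes a negative feedback loop. Fgfr3, a receptor tyrosine kinase for fibroblast growth factors, restrains chondrocyte proliferation, and activating mutations in it cause achondroplasia. In the GRCm38.p6 annotation the nearest protein-coding neighbours were Cfap65 and Nhej1 for Ihh, Klhl42 and Ccdc91 for Pthlh, Ccdc12 and Myl3 for Pth1r, and Tacc3 and Letm1 for Fgfr3. A peak in a window may therefore belong to any of several genes. No annotation or sequence of GRCm39 was used here, so peaks were not placed on gene starts, exons or introns, and the ATDC5 label was not checked against chondrocyte marker genes.

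The promoters of the 4 genes are shown because they are the sequences from which these signals and receptors are transcribed. They were taken from RefSeq on the GRCm38.p6 assembly, 250 bases upstream of an annotated start, on the gene's own strand. Capitals mark the GC box GGGCGG or its reverse complement CCGCCC, the core motif of Sp family factors. Ihh, Pthlh and Pth1r lie on the minus strand of chromosomes 1, 6 and 9, and Fgfr3 lies on the plus strand of chromosome 5.
Ihh promoter: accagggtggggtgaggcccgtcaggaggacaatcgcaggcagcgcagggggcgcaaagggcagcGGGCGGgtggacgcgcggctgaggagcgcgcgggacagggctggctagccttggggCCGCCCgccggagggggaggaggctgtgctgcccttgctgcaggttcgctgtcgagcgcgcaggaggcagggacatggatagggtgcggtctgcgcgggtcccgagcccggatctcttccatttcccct
Pthlh promoter: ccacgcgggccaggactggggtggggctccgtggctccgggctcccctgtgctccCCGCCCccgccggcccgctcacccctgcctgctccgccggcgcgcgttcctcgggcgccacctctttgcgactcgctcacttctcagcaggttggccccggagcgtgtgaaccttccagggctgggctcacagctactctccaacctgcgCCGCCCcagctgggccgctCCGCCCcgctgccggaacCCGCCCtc
Pth1r promoter, start 1: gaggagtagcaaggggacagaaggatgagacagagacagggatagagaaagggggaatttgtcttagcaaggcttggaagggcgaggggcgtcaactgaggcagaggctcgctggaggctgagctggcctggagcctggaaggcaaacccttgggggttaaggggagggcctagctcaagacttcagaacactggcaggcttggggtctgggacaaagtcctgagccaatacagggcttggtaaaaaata
Pth1r promoter, start 3: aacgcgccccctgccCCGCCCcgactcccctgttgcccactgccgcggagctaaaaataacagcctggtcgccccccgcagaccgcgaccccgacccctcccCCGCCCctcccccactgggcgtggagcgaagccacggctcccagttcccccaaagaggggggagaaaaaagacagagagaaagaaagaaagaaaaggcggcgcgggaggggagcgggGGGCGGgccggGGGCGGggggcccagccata
Fgfr3 promoter, start 1: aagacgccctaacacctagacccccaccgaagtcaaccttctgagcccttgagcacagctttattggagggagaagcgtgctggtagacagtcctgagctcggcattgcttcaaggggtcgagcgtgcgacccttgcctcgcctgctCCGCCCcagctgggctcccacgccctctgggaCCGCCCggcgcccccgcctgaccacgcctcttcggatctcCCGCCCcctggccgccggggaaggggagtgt
The promoters of both signals were rich in CpG, with a GC content of 72.0% and 24 CpG for Ihh and 75.2% and 26 CpG for Pthlh. The median over 32851 RefSeq promoters was 52.4% GC and 6 CpG. Pth1r had unlike starts: start 1 had 3 CpG and no GC box, while start 3 had 22 CpG and 4 GC boxes, with a GC content of 56.0% and 70.4%. Start 2 of Pth1r, not shown, had 16 CpG and 1 GC box. Fgfr3 start 1 had 19 CpG and 3 GC boxes and start 2, not shown, had 24 CpG and 2 GC boxes; those 2 overlap. Of all promoters of this length, 32.7% held a GC box on either strand. The peak coordinates are in another assembly, so no peak was assigned to any of these promoters.

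The lists differed in length and depth. They held between 164642 and 177751 peaks on Day0 and Day3 and 381376 and 390100 on Day10. Depth was estimated as the background recovered from the authors' fold ratios, divided by the smallest peak width of the library. Relative to Day0 replicate 1 it was 1.0 in Day0 replicate 2, 1.11 and 1.13 on Day3 and 1.96 in both Day10 libraries. The estimate thus depends on that width, and whether the width suits this use was not tested. The smallest peak width was 87 to 90 bases on Day0 and Day3 and 68 and 72 bases on Day10. Depth, width and day cannot be told apart on Day10. Replicates of 1 day differed by less than Poisson counting would give, with a mean dispersion of 0.36 on Day0, 0.37 on Day3 and 0.38 on Day10 over all regions. In the 4 windows it was 0.33, 0.30 and 0.77 on those days, and the largest difference between Day10 replicates there was 1.34 on the log2 scale, at Pth1r region 6. P-values below therefore measure only the spread between these libraries, which may be technical. In a bulk culture, more cells with an open site and a site more open per cell cannot be told apart.

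Peaks spread over much more of the Ihh, Pth1r and Fgfr3 windows on Day10, whereas coverage of the Pthlh window changed by less than that of the genome. In the Fgfr3 window, listed peaks covered 12.0 kb in each Day0 library, 17.8 and 17.4 kb in those of Day3, and 69.2 and 70.9 kb in those of Day10. That was 46.1% and 47.3% of the window on Day10, against 7.98% and 8.01% on Day0. In the Pth1r window, coverage was 14.9 and 14.98 kb on Day0, 20.8 and 20.1 kb on Day3, and 54.0 and 55.3 kb on Day10. In the Ihh window it was 4.04 and 3.67 kb on Day0, 5.48 and 5.56 kb on Day3, and 18.4 and 19.5 kb on Day10. Both Day10 libraries stood far above all 4 earlier libraries in these 3 windows. The Pthlh window had 6.15 and 6.91 kb on Day0, 6.52 and 7.0 kb on Day3, and 8.48 and 8.77 kb on Day10, so that the Day10 libraries were again the highest, by a smaller margin. This was 2.83% and 2.92% of the Pthlh window on Day10, the smallest share of the 4 windows.

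**Figure D1:**
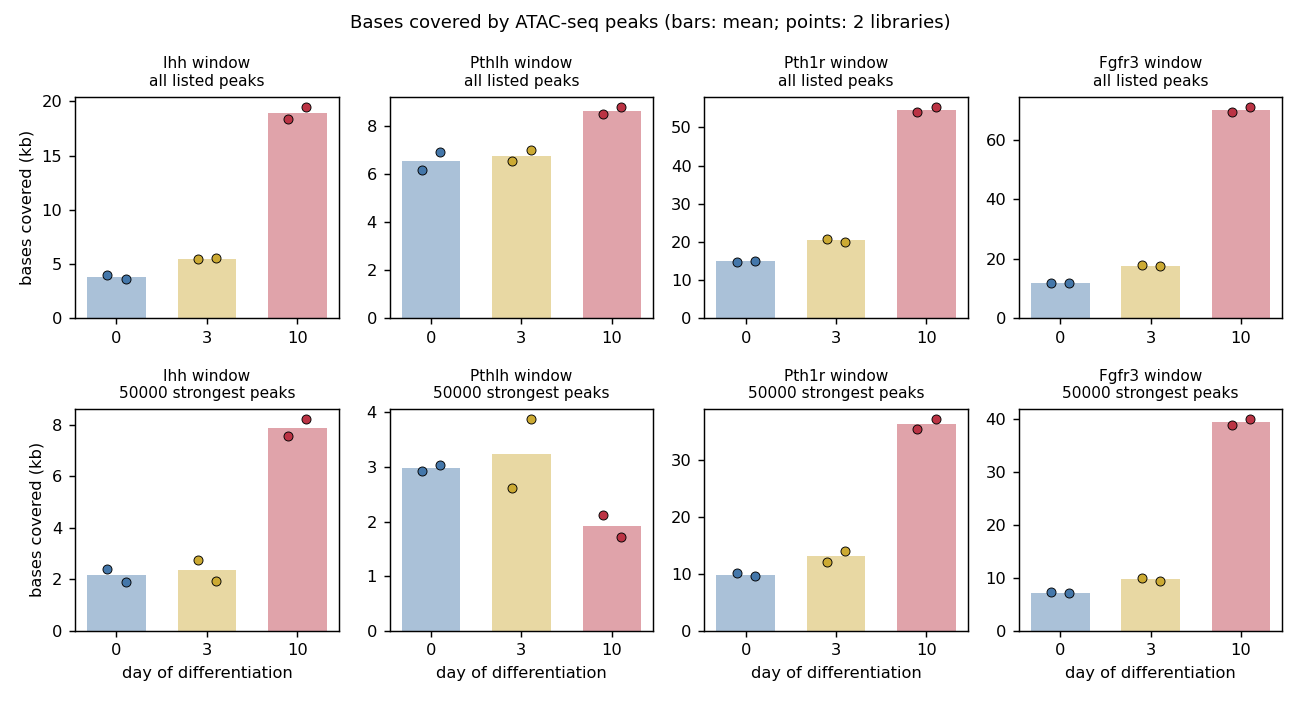
Kilobases covered by peaks in each window (vertical axis, starting at 0 and scaled per panel) by day of differentiation, for all listed peaks (upper row) and the 50000 strongest peaks of each library (lower row); bars are the mean of 2 libraries and points the libraries. Day10 lies far above the earlier days for Ihh, Pth1r and Fgfr3 in both rows, while for Pthlh it is the highest day in the upper row and the lowest in the lower row, with a Day10 to Day0 ratio of 1.32 and 0.65.

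The ratio of the mean covered bases on Day10 to that on Day0 was 5.84 for Fgfr3, 4.91 for Ihh, 3.66 for Pth1r and 1.32 for Pthlh, against 1.86 over the genome. Among genome tiles of the same length with at least 1000 covered bases on Day0, 0.785% had a ratio at or above that of Fgfr3, 1.09% at or above that of Ihh, 4.23% at or above that of Pth1r and 68.8% at or above that of Pthlh. The median tile had a ratio of 1.60 to 1.61. No test was made of these shares, and the tile minimum was chosen after the values were seen. Between Day3 and Day0 the ratios were 1.47 for Fgfr3, 1.43 for Ihh, 1.37 for Pth1r and 1.04 for Pthlh, against 1.09 over the genome. With only the 50000 strongest peaks of each library, which removes the difference in list length, the Day10 to Day0 ratios were 5.51 for Fgfr3, 3.67 for Ihh and 3.68 for Pth1r, against 1.25 over the genome. For Pthlh the ratio then turned below 1, to 0.65.

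The 78698 regions compared between days reached 250 bases to each side of the summits of the 50000 strongest peaks of each library, and 68 of them lay in the 4 windows: 13 for Ihh, 9 for Pthlh, 26 for Pth1r and 20 for Fgfr3. A region counted as gained when it ranked 50000 or better in both libraries of the later day and beyond 100000, or not at all, in both libraries of the earlier one. The mirrored rule gave the lost regions. Between Day10 and Day0, 15 of the 68 regions (22.1%) were gained, namely 5 for Ihh, none for Pthlh, 4 for Pth1r and 6 for Fgfr3, where 10.7% of all regions were gained. In the same comparison 4 of 68 (5.9%) were lost, 2 for Pthlh and 2 for Pth1r, where 7.99% of all regions were lost. Where the peak had only to have its summit in the region, 11 of 68 (16.2%) were lost, against 10.0% of all regions, so that the members' share lay above the genome's and no longer below it. That rule also counts as lost a region still under a Day10 peak whose summit lies outside it. Ihh region 7 and Pth1r region 21 were among these 11, although limma called them higher on Day10 than on Day0 (below). Between Day10 and Day3, 10 were gained and 2 lost, against 7.72% and 3.16% of all regions. Of these 10, 4 lay in the Ihh window, 4 in the Fgfr3 window and 2 in the Pth1r window. Between Day3 and Day0 none of the 68 was gained or lost, and the shares of all regions were 0.543% and 0.513%. Of the 15 regions gained since Day0, 9 were listed in neither Day0 library and 5 in neither Day3 library. These are counts with no p-value, because 2 against 2 libraries cannot give a two-sided exact permutation p below 0.333.

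Where a peak was listed in all 6 libraries, the authors' fold over background was compared on the log2 scale after quantile normalization, with limma and Benjamini-Hochberg adjustment over 67464 regions. A call needed an adjusted p under 0.05 and a log2 difference of at least 1. This leaves out regions with no listed peak in some library, whether on Day0, Day3 or Day10, so it covers 48 of the 68, namely 8 for Ihh, 8 for Pthlh, 18 for Pth1r and 14 for Fgfr3. Between Day10 and Day0, 17 of 48 (35.4%) were higher, 3 for Ihh, 1 for Pthlh, 6 for Pth1r and 7 for Fgfr3, where 10.7% of all regions tested were higher. These 17 regions rest on 15 distinct Day10 peaks, since 1 wide peak can overlap several regions. In 4 of the 17 the Day10 peak had its summit outside the region in both libraries, and in 1 more in 1 library. Where all 6 libraries had a summit inside the region, 12 of 36 (33.3%) were higher, against 10.9% of all regions so tested. In that comparison 4 of 48 (8.3%) were lower, 2 for Pthlh and 2 for Pth1r, against 11.7% of all. The median log2 difference was 0.94 for Fgfr3, 0.47 for Ihh, 0.44 for Pth1r and 0.27 for Pthlh, against 0.02 over all regions. Between Day10 and Day3, 9 of 48 were higher, 6 for Fgfr3 and 3 for Pth1r, and 2 were lower, against 8.2% and 5.53% of all regions. Between Day3 and Day0, 1 of 48 was higher and 2 were lower, against 3.28% and 4.52%. The 3 comparisons share libraries and are not independent.

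**Figure D2:**
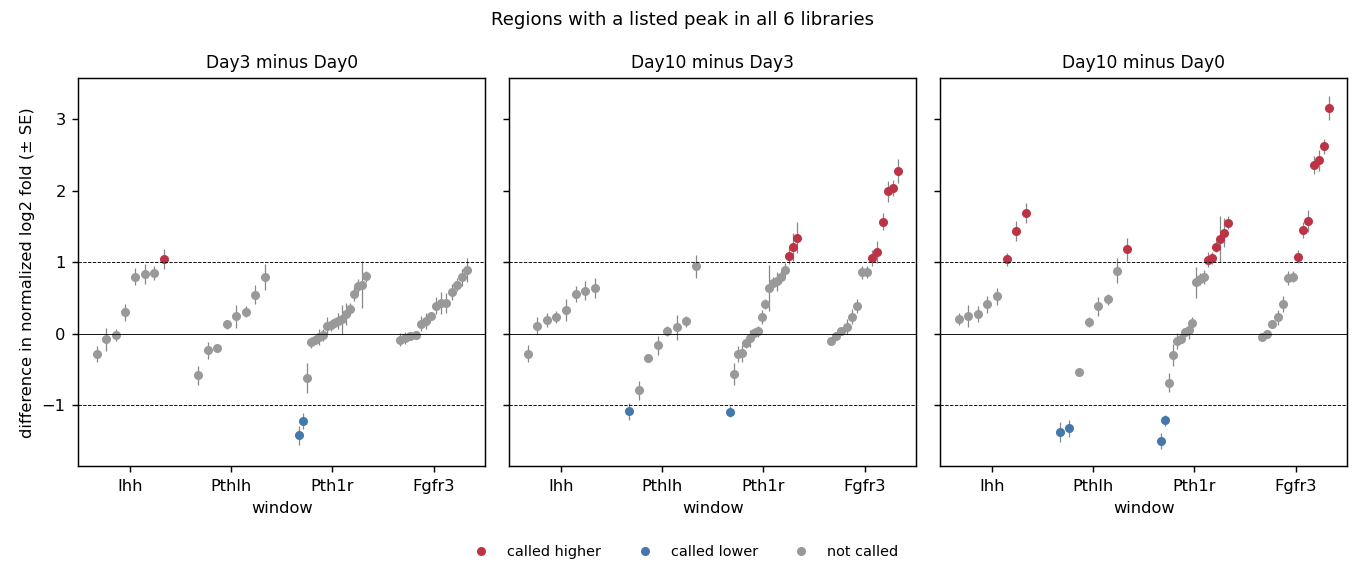
Difference in normalized log2 fold (vertical axis, points with bars of 1 SE) for each of the 48 regions tested, sorted within each window, with 1 panel per comparison; dashed lines mark the log2 difference of 1 that a call needed, and red and blue mark regions called higher and lower. The Fgfr3 window reaches 3.16 between Day10 and Day0, and its called regions are all higher, while Pthlh and Pth1r have calls in both directions.

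The window of Ihh, the hedgehog ligand, had 5 of the 15 gained regions, and 4 of these lay within 10 kb of each other at its far end. There, peaks joined when at most 1000 bases apart ran past the window's end in Day10 replicate 1, from 75048173 to 75056334. This was the longest stretch in that library, while that of Day10 replicate 2 lay elsewhere in the window. Peaks with summits beyond the window were not examined. Ihh region 11, chr1:75045117-75045617, was listed in no library of Day0 or Day3 and had a fold over background of 25.4 and 29.3 on Day10. Ihh region 13, chr1:75049254-75049754, likewise appeared only on Day10, with a fold of 28.3 and 27.9. Ihh region 12, chr1:75046269-75046769, was at 3.89 in Day3 replicate 2, close to the lowest fold listed in that library, and at 24.0 and 22.8 in the Day10 libraries. These 3 regions were gained against Day0 and against Day3 alike.

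Ihh region 10, chr1:75040285-75040785, had a higher fold on each later day. Its fold was 6.41 and 6.93 on Day0, 12.2 and 14.5 on Day3 and 20.6 and 19.5 on Day10, so no library of 1 day overlapped another day. In limma its log2 difference was 1.69 ± 0.14 (SE) between Day10 and Day0, with an adjusted p of 1.97e-06, and 1.05 ± 0.14 between Day3 and Day0, with an adjusted p of 0.000199. Between Day10 and Day3 the difference was 0.64 ± 0.14 (limma, adjusted p = 0.00283), short of a call, and the region was not gained by rank. The Day3 to Day0 call is close to the threshold. It was lost without Day3 replicate 2, at 0.93, and without Day0 replicate 1, at 0.99. Without normalization it was also lost, at a value that only rounds to 1.0. Ihh region 10 was the 1 region of the 4 windows called higher by Day3.

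Ihh region 7, chr1:75003575-75004075, held the best rank of the Ihh window. It had a fold of 17.5 and 21.4 on Day0, 30.6 and 32.8 on Day3, and 34.1 and 34.9 on Day10, with most of the difference present on Day3. Its log2 difference was 1.04 ± 0.10 (SE) between Day10 and Day0 (limma, adjusted p = 4.15e-06), but 0.90 without Day0 replicate 1 and 0.83 without normalization, below the size a call needed. At Day10 the summit lay in the neighbouring Ihh region 8, chr1:75004368-75004868, which was gained against both earlier days and has the same Day10 peak. Ihh region 6, chr1:74965809-74966309, had 6.99 and 7.51 on Day0, 12.2 and 12.8 on Day3, and 16.8 and 19.99 on Day10, a log2 difference of 1.44 ± 0.14 between Day10 and Day0 (limma, adjusted p = 4.84e-06). No Ihh region was lost or called lower in any comparison. Ihh region 1, chr1:74855916-74856416, near the other end, had folds between 27.8 and 34.7 in all 6 libraries.

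Pthlh, the ligand at the other end of the feedback loop, had 2 of the 4 regions lost on Day10 and 2 of the 4 called lower. Pthlh region 7, chr6:147162243-147162743, which held the best rank of the window in a single library, had a fold of 53.0 and 52.0 on Day0, 41.1 and 40.6 on Day3 and 29.7 and 31.6 on Day10. The 3 days did not overlap and each was lower than the one before. The log2 difference was -0.54 ± 0.06 (SE) between Day10 and Day0 after normalization (limma, adjusted p = 1.35e-05), under the size a call needed. Pthlh region 6, chr6:147142993-147143493, fell out of the lists: it had 26.8 and 33.5 on Day0 and 12.8 and 17.8 on Day3, and was listed in neither Day10 library. It was lost on Day10 against Day0.

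Pthlh region 4, chr6:147101403-147101903, had a fold of 26.2 and 27.2 on Day0, 21.7 and 18.4 on Day3 and 9.11 and 8.83 on Day10. It was lost on Day10 against both earlier days, and its log2 difference was -1.32 ± 0.12 (SE) against Day0 (limma, adjusted p = 3.11e-06) and -1.09 ± 0.12 against Day3 (adjusted p = 2.26e-05). The difference against Day3 no longer reached a call without Day3 replicate 1. Pthlh region 2, chr6:147019224-147019724, had 29.1 and 32.9 on Day0, 18.3 and 17.8 on Day3 and 11.5 and 8.83 on Day10, with a log2 difference of -1.38 ± 0.13 between Day10 and Day0 (limma, adjusted p = 5.69e-06). Less than 4 kb from it, Pthlh region 3, chr6:147022793-147023293, did the opposite, with 13.4 and 9.82 on Day0, 11.7 and 14.5 on Day3 and 23.0 and 24.6 on Day10. Its log2 difference between Day10 and Day0 was 1.18 ± 0.16 (limma, adjusted p = 8.42e-05), and 0.95, short of a call, without Day0 replicate 2. Pthlh region 1 stayed between 32.1 and 33.8 in all 6 libraries. Of 50 sites in the Pthlh window, counting every listed peak, 5 (10.0%) were listed in both Day0 libraries and in no Day10 library, against 5.15% of sites genome-wide. The share was 1.56% in the Ihh window, 4.49% in the Pth1r window and 0.0% in the Fgfr3 window.

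Pth1r, the receptor of the Pthlh product, had gains and losses side by side in a window with many peaks. Of its 4 gained regions, 3 lay in a near-continuous Day10 tract of all listed peaks, and its 2 lost regions lay outside that tract. Joining peaks at most 1000 bases apart, a rule chosen after the data were seen, gave a longest stretch of 2.66 and 3.08 kb on Day0, 5.64 and 5.49 kb on Day3 and 49.8 and 49.9 kb on Day10. The Day10 stretch ran from 110542245 to 110592072 on chromosome 9 in replicate 1 and from 110542235 to 110592101 in replicate 2, with 84.1% and 85.8% of its bases inside a peak. Within it, the widest peak spanned 7996 bases in replicate 1 and 11567 bases in replicate 2. Stretches of 20000 bases or longer made up 0.00779% and 0.00689% of all stretches in the libraries of Day0, 0.011% and 0.0118% in those of Day3, and 0.135% and 0.152% in those of Day10. With the 100000 strongest peaks of each library, the Day10 stretch was 19.5 and 25.4 kb. It then ended at 110564012 in replicate 1 and at 110569423 in replicate 2. Gained regions 16 and 18 lay beyond this shorter stretch in both libraries, and gained region 14 lay beyond it in replicate 1.

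**Figure D3:**
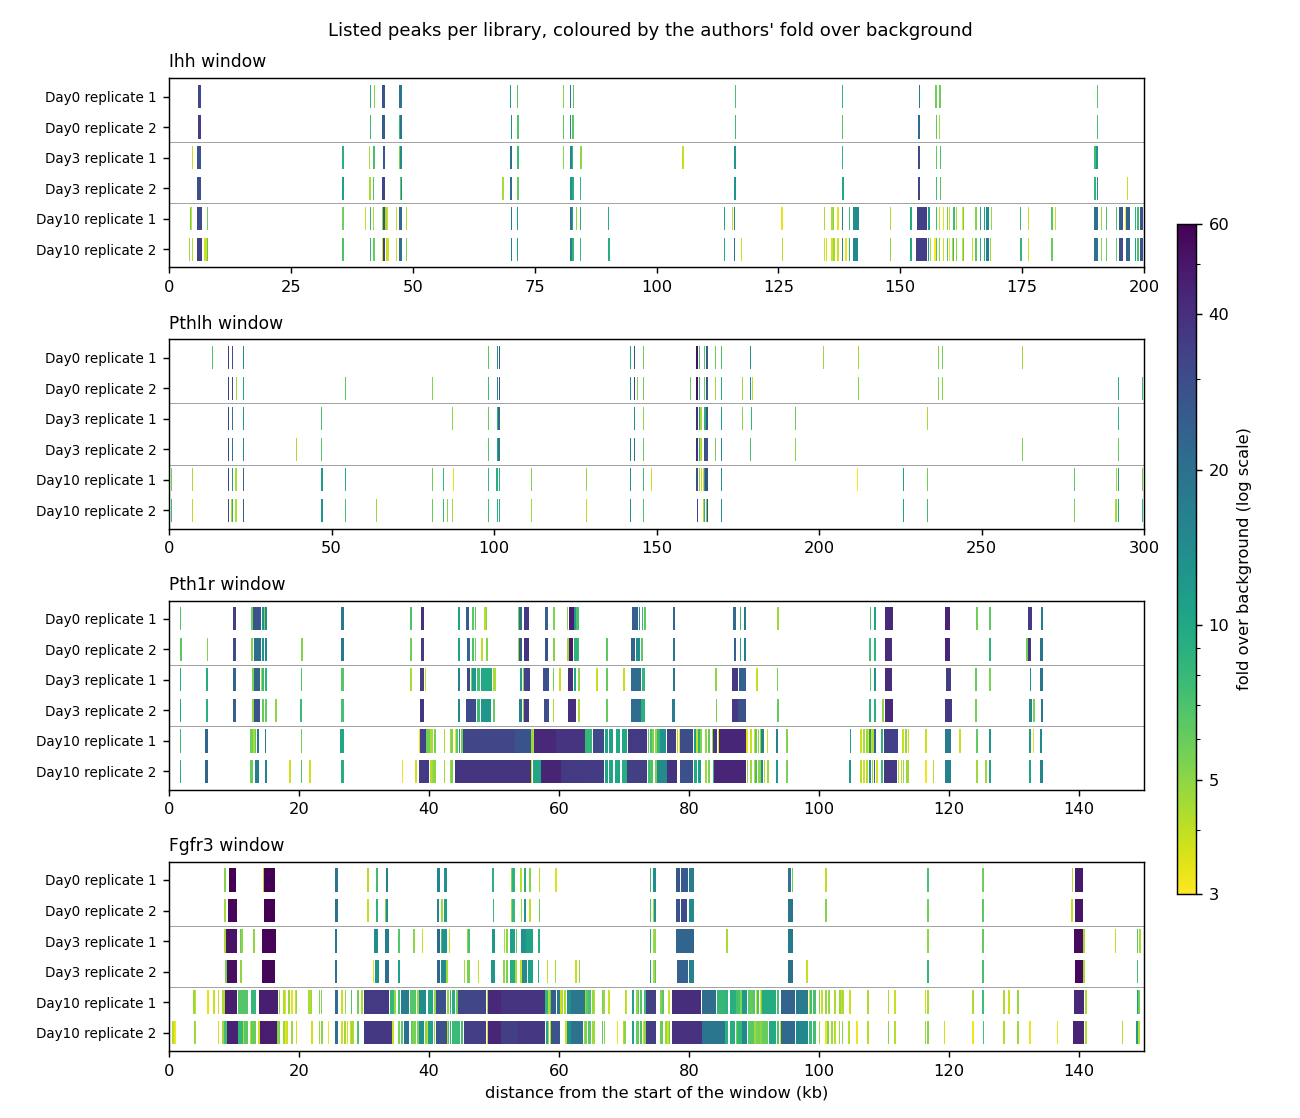
Listed peaks along each window (horizontal axis, kilobases from the start of the window), 1 row per library, coloured by the authors' fold over background on a log scale. Both Day10 libraries show near-continuous tracts in the Pth1r and Fgfr3 windows, 49.8 and 49.9 kb long for Pth1r and 39.9 kb for Fgfr3, where the earlier days have separate peaks.

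Inside the tract of all listed peaks, Pth1r region 18, chr9:110579816-110580316, was listed only on Day10, with a fold of 29.7 and 28.8. Pth1r region 14, chr9:110565520-110566020, had 3.89 in Day3 replicate 1 and 31.2 and 35.8 on Day10, and both regions were gained against Day0 and Day3. Pth1r region 16, chr9:110572959-110573459, was at 6.41 in Day0 replicate 1, at 8.34 and 8.90 on Day3 and at 36.0 and 34.4 on Day10, and was gained against Day0.

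Pth1r region 12, chr9:110557922-110558422, held the window's best rank, with 23.9 and 27.7 on Day0, 28.9 and 29.5 on Day3 and 43.2 and 44.6 on Day10. The log2 difference was 1.06 ± 0.08 (SE) between Day10 and Day0 (limma, adjusted p = 9.2e-07), but 0.96 without Day0 replicate 1 and 0.77 without normalization, short of a call. Pth1r region 21, chr9:110588279-110588779, at the tract's end, had 18.6 and 17.3 on Day0, 23.9 and 27.8 on Day3 and 43.7 and 44.2 on Day10, a log2 difference of 1.56 ± 0.09 (limma, adjusted p = 3e-07). Its Day10 value is that of a wide peak with its summit in the neighbouring Pth1r region 20, chr9:110586699-110587199. Region 20 itself had 21.6 and 24.3 on Day0 and 36.7 and 36.1 on Day3, a log2 difference of 1.22 ± 0.07 between Day10 and Day0 (limma, adjusted p = 2.88e-07). For Pth1r region 6, chr9:110544417-110544917, the replicates disagreed, at 14.9 and 37.6 on Day10 against 10.5 and 10.4 on Day0; the second value belongs to the 11567-base peak, whose summit lies outside the region. Its log2 difference of 1.33 ± 0.33 (limma, adjusted p = 0.00417) was 0.61 without Day10 replicate 2, and the call was also lost without either Day0 library.

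Beyond the tract, Pth1r region 1, chr9:110505600-110506100, was gained against Day0, with no peak in Day0 replicate 1 and a fold of 5.20 in Day0 replicate 2, 9.45 and 8.90 on Day3 and 22.5 and 22.8 on Day10. Pth1r region 22, chr9:110608269-110608769, had 23.0 and 23.7 on Day10, against 10.5 and 8.67 on Day0, a log2 difference of 1.42 ± 0.20 (SE; limma, adjusted p = 8.96e-05). The regions called lower had a different course from one another, and both were still listed in both Day10 libraries. Pth1r region 25, chr9:110632282-110632782, fell early, with 36.1 and 39.3 on Day0, 13.9 and 15.01 on Day3 and 12.0 and 10.7 on Day10. Its log2 difference was -1.22 ± 0.11 (SE) between Day3 and Day0 (limma, adjusted p = 2.66e-05) and -1.5 ± 0.11 between Day10 and Day0 (adjusted p = 1.02e-06). Pth1r region 24, chr9:110619578-110620078, fell late, with 44.9 and 43.3 on Day0, 35.0 and 36.7 on Day3 and 17.3 and 16.3 on Day10. Its log2 difference was -1.21 ± 0.08 between Day10 and Day0 (limma, adjusted p = 4.33e-07) and -1.09 ± 0.08 between Day10 and Day3 (adjusted p = 1.88e-06).

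Pth1r region 4, chr9:110526471-110526971, dipped, at 18.1 and 17.9 on Day0, 6.67 and 7.23 on Day3 and 10.1 and 9.30 on Day10. It was lost on Day10 against Day0 and was lower on Day3 than on Day0, by a log2 difference of -1.42 ± 0.13 (SE; limma, adjusted p = 2.88e-05). In limma its difference between Day10 and Day0, -0.69 ± 0.13, was short of a call (adjusted p = 0.000946). Pth1r region 2, chr9:110509766-110510266, had 34.4 and 31.2 on Day0 and 22.8 and 23.9 on Day3 and was listed in neither Day10 library, so that it was lost against both days. Pth1r region 23 stayed between 34.1 and 42.8 in all 6 libraries.

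**Figure D4:**
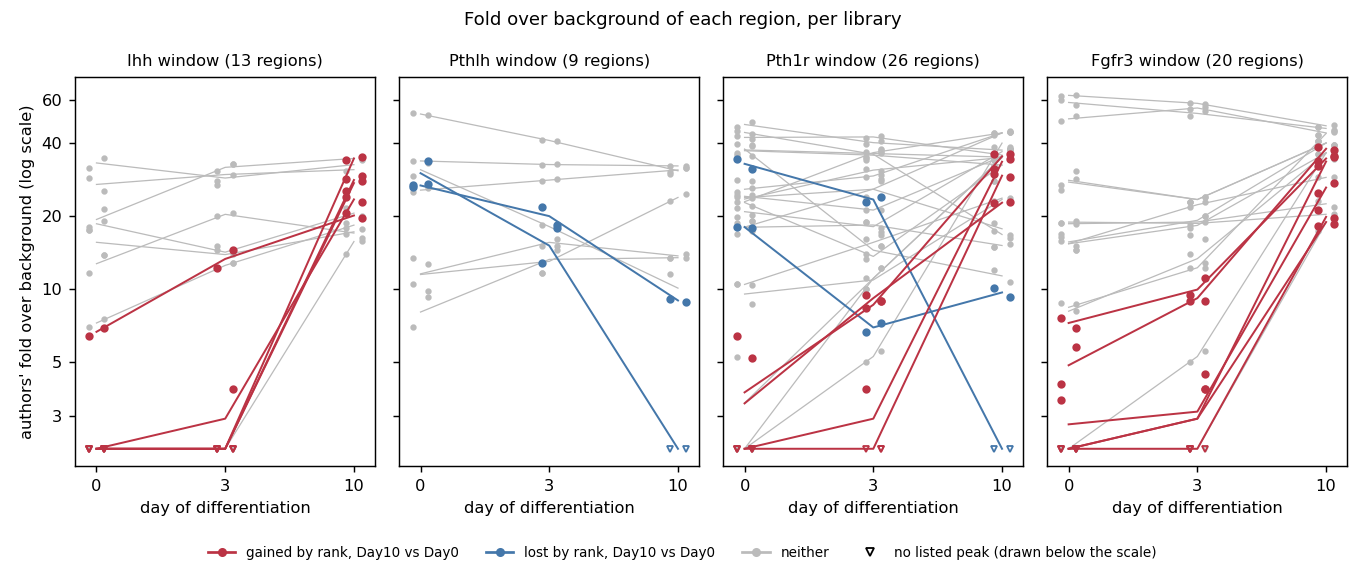
Authors' fold over background (vertical axis, log scale) by day of differentiation for all 68 regions, with points for the libraries and lines through the means per day; red marks regions gained and blue regions lost between Day10 and Day0, and open triangles mark libraries with no listed peak, drawn below the scale. The 15 gained regions stand highest on Day10, and the 4 lost regions lie in the Pthlh and Pth1r windows.

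Fgfr3, the receptor that restrains proliferation, had the largest share of tested regions called higher, 7 of 14, with none called lower or lost. These 7 regions rest on 6 distinct peaks in each Day10 library. Fgfr3 regions 5 and 17 are among the 7, although their Day10 peak had its summit outside the region in both libraries. Its longest stretch of joined peaks was 2.93 and 2.86 kb on Day0, 5.52 and 5.55 kb on Day3 and 39.9 kb in both Day10 libraries, between 33825498 and 33865430 on chromosome 5 in replicate 1. With the 100000 strongest peaks it was 13.3 and 12.5 kb on Day10. Fgfr3 region 11, chr5:33856685-33857185, had the largest log2 difference among the 48 regions tested with limma, which leave out those unlisted on Day0. Its fold was 4.08 and 5.78 on Day0, 9.45 and 8.90 on Day3 and 38.4 and 37.2 on Day10, which correspond to 6 and 9, 16 and 15, and 79 and 79 overlapping reads at the summit. The log2 difference was 3.16 ± 0.17 (SE) between Day10 and Day0 (limma, adjusted p = 1.87e-07), 2.27 ± 0.17 between Day10 and Day3 (adjusted p = 1.95e-06) and 0.89 ± 0.17 between Day3 and Day0 (adjusted p = 0.00146, short of the size a call needed, but 1.13 and called without Day0 replicate 2). The difference between Day10 and Day3 was thus larger than that between Day3 and Day0.

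Fgfr3 region 9, chr5:33849903-33850403, took the same course, with 8.74 and 8.09 on Day0, 12.2 and 12.2 on Day3 and 43.2 and 44.2 on Day10, and a log2 difference of 2.62 ± 0.11 (SE) between Day10 and Day0 (limma, adjusted p = 1.49e-07). Fgfr3 region 14, chr5:33873846-33874346, had 7.57 and 6.93 on Day0, 8.90 and 11.1 on Day3 and 33.6 and 35.3 on Day10, a log2 difference of 2.43 ± 0.14 (limma, adjusted p = 2.76e-07), and was gained by rank. Fgfr3 region 8, chr5:33847127-33847627, was listed in no Day0 library, at 3.89 in Day3 replicate 2, and at 32.1 and 34.9 on Day10. Fgfr3 region 12, chr5:33859094-33859594, had 3.5 in Day0 replicate 1, 4.45 in Day3 replicate 2 and 24.9 and 27.4 on Day10. Fgfr3 region 18, chr5:33882997-33883497, was listed only on Day10, at 21.1 and 18.6. These 3 were gained against both earlier days. The sixth gained region, Fgfr3 region 13 at chr5:33862520-33863020, had 3.89 in Day3 replicate 2 and 18.2 and 19.5 on Day10. It too was gained against both earlier days.

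A cluster of sites further along merged into 1 wide peak. On Day10, Fgfr3 regions 15, 16 and 17 lay in a single peak, 4502 bases wide in replicate 1 and 4550 bases wide in replicate 2, with a fold of 40.8 and 39.0. On Day0 they had folds of 26.8 and 28.3, 25.6 and 30.6, and 16.9 and 14.4. In Day3 replicate 1, regions 15, 16 and 17 already lay in a single peak, 2767 bases wide. In Day3 replicate 2, regions 15 and 16 shared a peak and region 17 had its own. Region 16 had a fold of 22.8 and 23.9 on Day3, below its Day0 folds. The Day10 summit lay in region 16, so the Day10 value of regions 15 and 17 is that of region 16. The log2 difference of region 16 between Day10 and Day0 was 0.78 ± 0.09 (SE; limma, adjusted p = 2.59e-05), short of a call. Region 17 was called higher, at 1.58 ± 0.15, with the Day10 value of the peak whose summit lay in region 16. Regions 15 to 17 were chosen after their values were seen. Peaks wider than 2500 bases numbered 5 and 7 in the Fgfr3 window and 5 and 6 in the Pth1r window on Day10, 1 in Day3 replicate 1 in the Fgfr3 window, and none in the Ihh and Pthlh windows in any library. Genome-wide, such peaks made up 0.1% and 0.111% of the peaks on Day0, 0.238% and 0.226% on Day3, and 0.236% and 0.274% on Day10.

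The best-ranked region of the Fgfr3 window did not follow this course. Fgfr3 region 2, chr5:33815142-33815642, which ranked 122 in its best library, had 62.3 and 63.0 on Day0, 58.4 and 57.8 on Day3 and 46.5 and 47.4 on Day10. Its normalized log2 difference was -0.05 ± 0.04 (SE) between Day10 and Day0 (limma, adjusted p = 0.26). On Day10 the summit of this peak lay just outside the region in both libraries. The largest pileup listed in a library was 136 and 144 on Day10, where the smallest peak width was 68 and 72 bases. On Day0 it was 162 and 166, with smallest widths of 88 and 90 bases. Whether pileups, and with them the folds of the strongest peaks, have a ceiling was not tested. Fgfr3 region 20 had folds between 43.2 and 56.2 in all 6 libraries.

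Counting every listed peak, and not only the strongest, gave 124 sites in the Fgfr3 window, 89 in the Pth1r window, 64 in the Ihh window and 50 in the Pthlh window. Sites listed in both Day10 libraries and in no earlier library made up 61 of 124 (49.2%) for Fgfr3 and 35 of 64 (54.7%) for Ihh, against 32.6% genome-wide. For Pth1r they made up 28 of 89 (31.5%) and for Pthlh 11 of 50 (22.0%). Sites listed in all 6 libraries made up 21.8% for Fgfr3, 20.3% for Ihh, 32.6% for Pth1r and 30.0% for Pthlh, against 29.8% genome-wide. Sites that joined by Day3, listed in both Day3 and both Day10 libraries and in no Day0 library, numbered 6 for Fgfr3, 3 for Ihh, 5 for Pth1r and 1 for Pthlh, against 5.26% of sites genome-wide. The Day10 lists are longer and deeper, and the part of depth in these shares was not tested.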

How the data were processed

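ATAC-seq of ATDC5 cells was deposited as 1 peak list per library (75-base single-end reads, per the labels). Trim Galore and mm10 are named in the submitters' processing notes, but the lists hold a scaffold name that belongs to GRCm39, so positions were read as GRCm39 and counted from 1. Aligner, peak caller and any shift for the Tn5 cut are not given in these sources. Each deposited list holds the authors' fold ratio over background, their −log10 p and −log10 q, and a whole-number score that follows the −log10 q. From the spacing of the authors' fold ratios, (pileup + 1) / (background + 1), pileups and backgrounds (0.7165 to 1.1515) were recovered, whole within 0.001 in 100% of peaks. The authors' fold is thus a ratio to 1 background value per library and is not corrected locally.

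Peaks were ranked in each library by the authors' −log10 p, then fold, then position. Regions reached 250 bases to each side of the summits of the 50000 strongest peaks of each library, and the better rank was kept where they overlapped. A rank call had to hold both for the peak with its summit in the region and for any overlapping peak. Quantile-normalized log2 folds were tested with limma 3.58.1 (R 4.3.3, trend and empirical Bayes) with Benjamini-Hochberg adjustment over all regions listed in all 6 libraries. The step was also run on simulated data, with normal noise at the spread of these replicates. That simulation held no shared wide peaks and no difference in depth, so it cannot test their part. Python 3.11.15 was used for the rest.

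Regions named are, for each window, the one with the best rank, those gained or lost (the 5 best-ranked where there were more) and the 3 largest called limma differences in each direction between Day10 and Day0. Others named were chosen after their values were seen. The windows, members and lists were chosen with earlier results of these data known. A planned pathway list and the naming of regions at gene starts need an annotation of GRCm39 and were not run. Promoters come from RefSeq tables of GRCm38.p6. File names inside the Day3 and Day10 lists differ in form, so handling and day cannot be told apart. Precision was limited by 2 libraries per day, and total reads are unknown.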

Additional observations from a re-analysis of the deposited data

How the results depend on the processing

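For the 18 named regions tested with limma, 528 values were recomputed under other settings. Of these, 504 were counted as unchanged, 19 lost a call, 5 gained one and 0 changed direction with a call in either setting. Changes of direction between values without a call were counted as unchanged. With ranks of 25000 and 100000 as limits, 9 regions were gained between Day10 and Day0 (2.82% of all regions) and 6 between Day10 and Day3 (1.71%), and 1 and 0 were lost (1.33% and 0.213%). With summits alone, a region still under a peak whose summit lies outside it also counts as lost. That gave 11, 8 and 1 lost between Day10 and Day0, Day10 and Day3, and Day3 and Day0 (10.0%, 4.59% and 1.72% of all regions). With no gap between the rank limits, 7, 6 and 1 were lost in those comparisons (17.5%, 14.1% and 7.65%), and 19 and 5 were gained between Day10 and Day3 and between Day3 and Day0 (11787 and 6290 of all 78698 regions). Leaving out 1 library gave 15 to 20 gained and 4 to 5 lost between Day10 and Day0, 10 to 13 and 2 to 3 between Day10 and Day3, and 0 to 1 lost between Day3 and Day0, the 1 without Day3 replicate 2. In limma, with unlisted regions set at the lowest listed fold, 30 of 68 were higher and 7 lower between Day10 and Day0 (18.2% and 18.1% of all regions), 25 and 5 between Day10 and Day3 (15.7% and 15.2%), and 2 were higher between Day3 and Day0 (3.25%). Without normalization 12 of 48 were higher and 4 lower between Day10 and Day0 (8.9% and 15.4% of all regions). In that setting 0 were higher between Day3 and Day0 (2.43% of all regions). The median of all regions then shifted by -0.21 between Day10 and Day0. Leaving out 1 library gave 14 to 17 higher between Day10 and Day0, 8 to 10 higher and 1 to 2 lower between Day10 and Day3 (1 without Day3 replicate 1), and 0 to 2 higher between Day3 and Day0, with 0 without Day0 replicate 1 or Day3 replicate 2. The ratio of covered bases for Pthlh was 0.74 with the 100000 strongest peaks and 0.65 with the 50000 strongest, where it was 1.32 as listed. These peak filters were chosen after seeing the data, and the cause of the changes was not tested. Same-numbered libraries did not deviate together (correlations 0.011, 0.006 and -0.01), and a replicate block left 17 higher and 4 lower between Day10 and Day0, 9 and 2 between Day10 and Day3, and 1 and 2 between Day3 and Day0.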
